A study of Mus musculus with 26 samples.

Results

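Excitation-contraction coupling is the step by which a skeletal muscle fibre turns an action potential into calcium release. In the transverse tubule membrane the L-type calcium channel, whose pore and voltage sensor is Cacna1s, senses the depolarisation and opens the ryanodine receptor Ryr1 in the facing membrane of the sarcoplasmic reticulum, and the calcium that leaves the store drives the contractile proteins. Cacnb1, Cacng1 and Cacna2d1 are the accessory subunits of the same channel, Stac3 is an adaptor that the channel needs to reach the junction and to couple to the release channel, and the junctophilins Jph1 and Jph2 hold the facing membranes together. Ryr3 is a further release channel of skeletal muscle, best known from developing fibres, and Ryr2 is the release channel of the heart. These 10 genes were chosen by name, for their role in this coupling, out of 55341 genes in the count tables, at a time when earlier results of these data were known.

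Their RNA levels were measured by RNA-Seq in 26 libraries of C2C12, a mouse myoblast line that exits the cell cycle and fuses into myotubes once serum is withdrawn. For the knockdown, wild-type C2C12 cells received the control siRNA siCtrl or one of the siRNAs against the lysine methyltransferase SMYD3, siSMYD3#1 or siSMYD3#2, in a pair of consecutive transfections, the later given when differentiation was induced, and were harvested at 0 h or after 24 h in differentiation medium, with 3 libraries per condition (18 in all). For the overexpression, cells transduced with the pREV retroviral vector carrying HA-FLAG-tagged SMYD3 (the clonal line SMYD3 CL5) or with the empty pREV vector were harvested at the same time points, with 2 libraries per condition (8 in all). The SMYD3 CL5 libraries all come from 1 clonal line, so the transgene cannot be told apart from other differences between that clone and the vector cells. In the knockdown, 1 library per condition was made from TRIzol-extracted RNA and the others from NucleoSpin-extracted RNA, whereas all 8 overexpression libraries were TRIzol libraries. Replicate numbers only name libraries within a condition.

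Smyd3, the targeted gene, was examined in every condition. In the siCtrl libraries it stood at 19.5 to 21.6 CPM (counts relative to library size, which was scaled by the trimmed mean of M-values) at 0 h and 17.8 to 20.7 CPM at 24 h. The libraries labelled siSMYD3#1 held 16.9 to 19.3 and 15.1 to 19.3 CPM, and Smyd3 did not pass the test there (log2 fold change -0.24 ± 0.16 (SE), adjusted p = 0.414 at 24 h, and -0.16 ± 0.16, adjusted p = 0.785 at 0 h). In the siSMYD3#2 libraries Smyd3 was lowered to 6.37 to 8.93 CPM at 0 h and 5.37 to 9.65 CPM at 24 h (-1.41 ± 0.16, adjusted p = 0.000107, and -1.51 ± 0.17, adjusted p = 5.06e-05). The libraries labelled SMYD3 CL5 held 16.9 to 27.1 CPM against 16.7 to 19.2 CPM in vector libraries, a difference that did not pass the test at 0 h (0.29 ± 0.27, adjusted p = 0.593) or at 24 h (0.36 ± 0.27, adjusted p = 0.671). Smyd3 RNA thus passed the test in the siSMYD3#2 libraries only, and every direction given below for siSMYD3#1 and SMYD3 CL5 is that of the libraries so labelled. These counts did not measure the transcript of the SMYD3 transgene separately. The paper reports ectopic SMYD3 in its clones by western blot and immunofluorescence against the tags. It treats cells given either siRNA as SMYD3 knockdown cells, and after siRNA it examined SMYD3 by western blot and Smyd3 RNA by qPCR.

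Library totals ran from 14315193 to 60398170 counts in the knockdown and from 21124675 to 67853386 in the overexpression, and p-values measure only the spread between these libraries. Of 7 myoblast and myotube markers (Myod1, Myf5, Des, Myog, Ckm, Myh3, Acta1), none was at 0 in every library of a condition and Ckm alone was at the floor of 3 counts or fewer, in every 0 h condition but SMYD3 CL5, so the cells carried the markers of their label. A lower level in these bulk libraries can mean fewer cells expressing a gene or less RNA per cell, which cannot be told apart. Unless stated otherwise, a gene is called raised or lowered at an adjusted p under 0.01 in edgeR's quasi-likelihood test, adjusted by Benjamini-Hochberg over the 15820 genes tested in the knockdown or the 17835 in the overexpression. Ryr2 did not pass the filter on low counts in the knockdown and passed it in the overexpression only through the SMYD3 CL5 libraries. In the overexpression Cacna1s, too, passed it only through those libraries. In the knockdown Cacna1s and Ckm were at the floor in every 0 h library, so they passed it only through 24 h libraries.

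RefSeq start-site windows matched 6 of the 10 genes (Ryr1, Ryr2, Cacna1s, Cacnb1, Cacna2d1 and Jph2; that of Cacnb1 lies inside the annotated gene), and the upstream windows of 4 are printed here because they span the range of responses described below: Ryr1 and Cacna1s, the channel pair with the widest change, Jph2, which followed them with a smaller one, and Cacna2d1, which passed the test in no comparison. Sequences are from RefSeq on GRCm38.p6, written 5′ to 3′ on the gene's strand and ending at the base before the annotated gene, at chr7:29125180-29125401 (minus strand, 222 bases) for Ryr1, chr1:136052561-136052749 (plus strand, 189 bases) for Cacna1s, chr2:163397994-163398243 (minus strand, 250 bases) for Jph2 and chr5:15934441-15934690 (plus strand, 250 bases) for Cacna2d1. Capitals mark E-boxes, CANNTG, the hexamer read by Myod1 and Myog.
Ryr1: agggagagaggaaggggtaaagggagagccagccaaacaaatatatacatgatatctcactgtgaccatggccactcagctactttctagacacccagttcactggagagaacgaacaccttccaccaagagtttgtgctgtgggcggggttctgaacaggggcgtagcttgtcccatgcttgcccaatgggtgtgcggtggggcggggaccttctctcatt
Cacna1s: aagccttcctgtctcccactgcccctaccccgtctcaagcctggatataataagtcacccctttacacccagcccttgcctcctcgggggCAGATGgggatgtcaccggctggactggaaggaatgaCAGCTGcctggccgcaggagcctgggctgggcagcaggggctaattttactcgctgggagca
Jph2: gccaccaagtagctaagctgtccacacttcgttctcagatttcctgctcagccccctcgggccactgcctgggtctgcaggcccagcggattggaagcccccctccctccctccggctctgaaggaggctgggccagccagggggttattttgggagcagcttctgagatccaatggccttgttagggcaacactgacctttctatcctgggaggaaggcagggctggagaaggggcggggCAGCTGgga
Cacna2d1: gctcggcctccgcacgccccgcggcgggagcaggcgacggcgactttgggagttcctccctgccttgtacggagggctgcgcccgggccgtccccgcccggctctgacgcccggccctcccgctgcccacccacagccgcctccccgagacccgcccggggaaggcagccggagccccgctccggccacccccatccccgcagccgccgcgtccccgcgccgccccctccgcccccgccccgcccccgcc

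The Cacna1s window held 2 E-boxes, CAGATG and CAGCTG, which begin 99 and 62 bases before the window's end, and the Jph2 window held 1, CAGCTG, 9 bases before its end. No E-box letters are in the Ryr1 or Cacna2d1 windows. The Ryr2 window, which is not printed, held 2, CAGGTG and CAGTTG, and Ryr2 was at the floor in every knockdown condition. Among 32851 RefSeq start sites, a window of 189 bases held CANNTG in 57.1% and CAGCTG, which is contained in it, in 9.77%, and a window of 250 bases did so in 66.2% and 13.0%. The sequences CCCTCC and GAGGGG, which the study names as bound by SMYD3 and which are able to overlap each other, were searched on both strands. CCCTCC matched at 3 places in each of the Jph2 and Cacna2d1 windows, and GAGGGG at 2 places in Jph2 and 1 in Cacna2d1. In windows of 250 bases they occur in 35.2% and 29.6% of all start sites. The Ryr1 and Cacna1s windows hold neither, and no window printed here holds the MEF2 consensus, present in 2.92% of all windows of 250 bases. These matches describe the letters and no binding was measured.

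The genes lie at chr7:29003344-29125179 (Ryr1, ENSMUSG00000030592), chr13:11553102-12106945 (Ryr2), chr2:112631355-113217096 (Ryr3, ENSMUSG00000057378), chr1:136052750-136119822 (Cacna1s, ENSMUSG00000026407), chr11:98001508-98023034 (Cacnb1), chr11:107703218-107716522 (Cacng1), chr5:15934691-16374511 (Cacna2d1), chr10:127501686-127508823 (Stac3), chr1:16964560-17097889 (Jph1) and chr2:163336242-163397993 (Jph2) of GRCm38. Counts were summed over exons. Exons of Ryr1, Ryr3, Cacna1s, Cacnb1 and Jph1 share 914, 916, 1309, 80 and 34 bases with genes on the opposite strand, and since the strand setting of the counting is not given in the sources used here, reads of such partners cannot be told apart from theirs. The partners of Ryr1 (Gm26604 and Gm44408) and Jph1 (Gm28376) had 0 counts in every library, those of Cacna1s (Gm37759) and Cacnb1 (Gm11629) at most 3 and 11. Aven, the partner of Ryr3, was at 8.63 to 31.6 CPM across the 26 libraries, with a mean of 17.4 CPM in SMYD3 CL5 and 19.0 CPM in vector cells at 24 h.

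Per kilobase of exon (RPKM, CPM divided by exon length), the RNA of the members was present in very unequal amounts. In siCtrl cells at 24 h Cacng1 led with 84.8 ± 11.4 RPKM (SD, n = 3), followed by Jph2 (20.1 ± 4.11) and Cacna2d1 (7.64 ± 0.591). Cacna1s, the pore that Cacng1 and Cacna2d1 serve, reached 0.447 ± 0.215 RPKM, below all other members but Ryr2. Cacnb1, Jph1, Stac3, Ryr3 and Ryr1 lay between, at 5.93 to 1.81 RPKM, and in that order each overlapped the next in the range of its libraries. Before differentiation the same cells held 39.3 ± 12.2 RPKM of Cacng1, 0.504 ± 0.360 of Ryr3 and 0.0700 ± 0.00837 of Ryr1, and Cacna1s and Ryr2 were at the floor of 3 counts or fewer in all 3 libraries. In vector cells at 0 h the order was alike at the top (Cacng1, Cacna2d1, Jph2) and bottom (Ryr1, then Cacna1s and Ryr2 at the floor). The scaling was done within each experiment, so levels set across the 2 experiments are only approximate.

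Differentiation of siCtrl cells raised 7 of the 9 members tested and lowered none, where 14.6% of all genes tested rose. The median log2 fold change of the 9 was 1.5, also with Cacna1s set at its lower bound, against 0.03 over all genes. The 9 and the 7 include Cacna1s, which was kept only through 24 h libraries, in which it is high. Release channels and the pore moved most. Accessory subunits moved less, and Cacna2d1 and Jph1 did not pass the test.

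Ryr1 stood at 1.62 CPM in the TRIzol library and at 1.32 and 1.65 CPM in the NucleoSpin libraries of siCtrl cells at 0 h, and at 31.5, 42.6 and 44.7 CPM in the same order of extraction at 24 h. The ranges were far apart, and the log2 fold change was 4.67 ± 0.23 (SE), a 25.5-fold rise (adjusted p = 7.8e-11). Within the NucleoSpin libraries alone it was 4.82 (adjusted p = 2.41e-12). Ryr3 rose from 17.4, 5.82 and 5.45 CPM to 94.96, 28.7 and 27.1 CPM, by 2.36 ± 0.19 (adjusted p = 3.98e-08), and by 2.30 within the NucleoSpin libraries. The TRIzol library was the highest for Ryr3 in each of the 6 knockdown conditions, by 3.10 to 5.80 times the mean of the NucleoSpin libraries, and the time points of siCtrl did not overlap in spite of that spread. Extraction method varied together with passage and its own part cannot be told apart. Ryr2 had at most 1 count in a siCtrl library at either time point.

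Cacna1s, with 0, 3 and 1 counts at 0 h, had 40, 73 and 64 counts at 24 h (1.41, 3.20 and 4.18 CPM). This is a rise of at least 32.3-fold, taking 3 counts in each 0 h library. No p-value is given for it, because the gene passed the filter only through 24 h libraries, in which it is high. The accessory subunits of the same channel, which were already present in myoblasts, changed less. Cacnb1, the beta subunit, rose from 6.96, 11.6 and 10.9 CPM to 16.8, 31.8 and 32.1 CPM (log2 fold change 1.43 ± 0.18, adjusted p = 4.19e-06). Cacng1, the gamma subunit, rose from 65.6, 35.7 and 46.0 CPM to 121.4, 93.5 and 102.7 CPM (1.14 ± 0.12, adjusted p = 1.16e-06). Cacna2d1, the alpha2-delta subunit, stayed within overlapping ranges, 67.4 to 91.3 CPM at 0 h and 89.8 to 103.3 CPM at 24 h (0.26 ± 0.12, adjusted p = 0.0934).

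Stac3 rose from 0.957, 5.598 and 4.27 CPM to 6.09, 11.04 and 10.8 CPM (1.5 ± 0.27, adjusted p = 0.000182). The TRIzol library was the lowest for this adaptor at both time points and in all 6 knockdown conditions. Jph2 rose from 22.6, 25.6 and 26.04 CPM to 65.6, 96.8 and 94.8 CPM (1.79 ± 0.19, adjusted p = 1.66e-06). Jph1, the junctophilin most typical of skeletal muscle, was at 15.5 to 17.7 CPM before and 19.9 to 21.7 CPM after. These ranges do not overlap, but the change of 0.33 ± 0.13 did not pass the test (adjusted p = 0.0503). Per length, the ratio of Jph2 to Jph1 was 1.5 to 1.98 at 0 h and 3.54 to 5.73 at 24 h in siCtrl libraries. Without extraction method in the model, 4 of the 7 calls remained, and those of Ryr3, Cacng1 and Stac3 were lost (2.40, 1.11 and 1.36, adjusted p = 0.0872, 0.0124 and 0.0984).

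**Figure D1:**
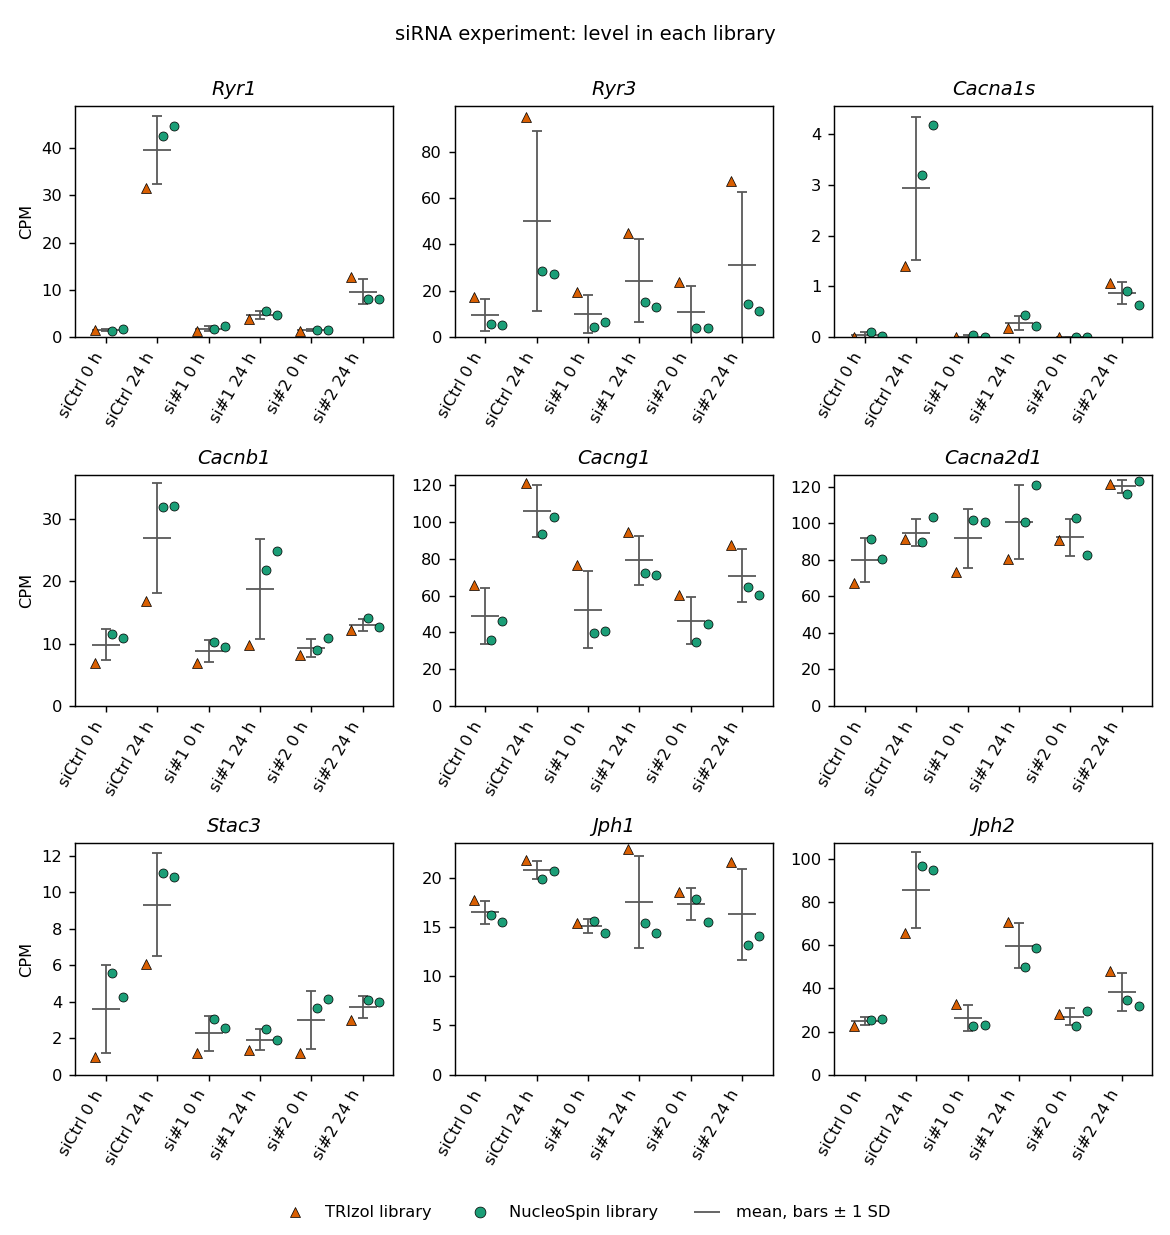
Levels of 9 members (panels) in the 18 knockdown libraries, in CPM on a linear axis from 0, by siRNA and time point (si#1 and si#2 are siSMYD3#1 and siSMYD3#2). Triangles are TRIzol libraries, circles NucleoSpin libraries, and the horizontal line with bars is the mean ± 1 SD of 3 libraries. The 24 h siCtrl libraries of Ryr1 lie between 31.5 and 44.7 CPM and every other library at or below 12.7 CPM, while Cacna2d1 shows no such step.

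With siSMYD3 at 24 h the question was whether these genes still reached the level of siCtrl cells. Of 9 members tested, 4 were lowered in the libraries labelled siSMYD3#1 (Ryr1, Ryr3, Cacna1s and Stac3) and 6 in the siSMYD3#2 libraries (Ryr1, Ryr3, Cacnb1, Cacng1, Stac3 and Jph2), where 2.94% and 2.04% of all genes tested fell, and none was raised by either. The median log2 fold changes of the 9 were -0.55 and -0.98, against 0.00 over all genes. Both comparisons use the same siCtrl libraries.

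Ryr1 fell furthest among the release channels. The libraries labelled siSMYD3#1 had 3.86 CPM (TRIzol) and 5.58 and 4.599 CPM (NucleoSpin) at 24 h, and the siSMYD3#2 libraries 12.7 CPM (TRIzol) and 8.19 and 8.02 CPM (NucleoSpin). All 6 lay below the 31.5 to 44.7 CPM of siCtrl. The log2 fold change was -3.07 ± 0.21 for siSMYD3#1 (adjusted p = 7.05e-08) and -2.00 ± 0.20 for siSMYD3#2 (adjusted p = 1.56e-05), or 8.41-fold and 4-fold lower, and -3.07 and -2.43 within the NucleoSpin libraries. Ryr3 was lowered by about the same amount with each siRNA, -1.02 ± 0.18 (adjusted p = 0.000924) and -0.89 ± 0.18 (adjusted p = 0.00417). Its TRIzol libraries read 94.96 CPM in siCtrl, 45.0 CPM in siSMYD3#1 and 67.5 CPM in siSMYD3#2, and its NucleoSpin libraries 27.1 to 28.7, 12.9 to 15.2 and 11.3 to 14.1 CPM, so the ranges overlap over all libraries but not within an extraction method. Both Ryr3 calls were lost without extraction method in the model (-1.04, adjusted p = 0.833, and -0.70, adjusted p = 0.953). Ryr2 had 1 to 3 counts in each of these libraries, at the floor.

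Cacna1s reached 6, 12 and 3 counts in the libraries labelled siSMYD3#1 (0.184, 0.435 and 0.212 CPM) and 27 (TRIzol), 15 and 11 counts in the siSMYD3#2 libraries (1.06, 0.910 and 0.635 CPM), all below the 1.41 to 4.18 CPM of siCtrl. The fall passed the test for siSMYD3#1 (-3.26 ± 0.50, adjusted p = 0.000342) and not for siSMYD3#2 (-1.57 ± 0.45, adjusted p = 0.0373), where it did within the NucleoSpin libraries (-2.25, adjusted p = 0.00265). With so few counts the value in a library is coarse. Cacnb1 was at 9.75, 21.8 and 24.8 CPM with siSMYD3#1, overlapping siCtrl (-0.55 ± 0.17, adjusted p = 0.0493), and at 12.2, 14.1 and 12.6 CPM with siSMYD3#2, below all siCtrl libraries (-0.98 ± 0.18, adjusted p = 0.00189). Cacng1 gave -0.42 ± 0.12 (adjusted p = 0.0311) and -0.59 ± 0.12 (adjusted p = 0.00507), and Cacna2d1 0.07 ± 0.12 (adjusted p = 0.801) and 0.35 ± 0.12 (adjusted p = 0.083). Cacna2d1 was the only member with a fitted value above siCtrl under both siRNAs, neither of which passed the test, and with siSMYD3#1 the sign turned without siCtrl 24 h replicate 2 or siSMYD3#1 24 h replicate 3 (lowest value -0.05).

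Stac3 was at 1.38, 2.50 and 1.91 CPM with siSMYD3#1 and 3.02, 4.12 and 3.98 CPM with siSMYD3#2, against 6.09 to 11.04 CPM in siCtrl, with no overlap. It was lowered by both, at -2.23 ± 0.29 (adjusted p = 4.43e-05) and -1.27 ± 0.27 (adjusted p = 0.00613). Jph2 was at 70.9, 50.03 and 58.7 CPM with siSMYD3#1, where the TRIzol library lay above the TRIzol library of siCtrl (65.6 CPM), and the change of -0.54 ± 0.18 did not pass (adjusted p = 0.0743), though it did within the NucleoSpin libraries (-0.82, adjusted p = 0.000144). With siSMYD3#2 it was at 48.2, 34.8 and 31.7 CPM and was lowered (-1.18 ± 0.19, adjusted p = 0.000938). Jph1 gave -0.25 ± 0.13 (adjusted p = 0.267) and -0.37 ± 0.14 (adjusted p = 0.102), and passed for siSMYD3#2 within the NucleoSpin libraries (-0.57, adjusted p = 0.00363). Without extraction method in the model only the Ryr1 call remained for each siRNA. For siSMYD3#2 the 6 calls were 1 to 6 when a library was left out: 2 without siCtrl 24 h replicate 2 or 3 or siSMYD3#2 24 h replicate 1, and 1, Ryr1, without siSMYD3#2 24 h replicate 2. In these fits Ryr3, Cacnb1, Cacng1 and Stac3 had adjusted p-values of 0.0114 to 0.0609 and Jph2, where lost, 0.0106. Stac3 alone was also lost without siCtrl 0 h replicate 3, siCtrl 24 h replicate 1, siSMYD3#1 0 h replicate 3, siSMYD3#1 24 h replicate 2 or siSMYD3#2 0 h replicate 2 (adjusted p from 0.0105 to 0.0326), and Cacng1 without siSMYD3#2 24 h replicate 3 (0.0173).

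**Figure D2:**
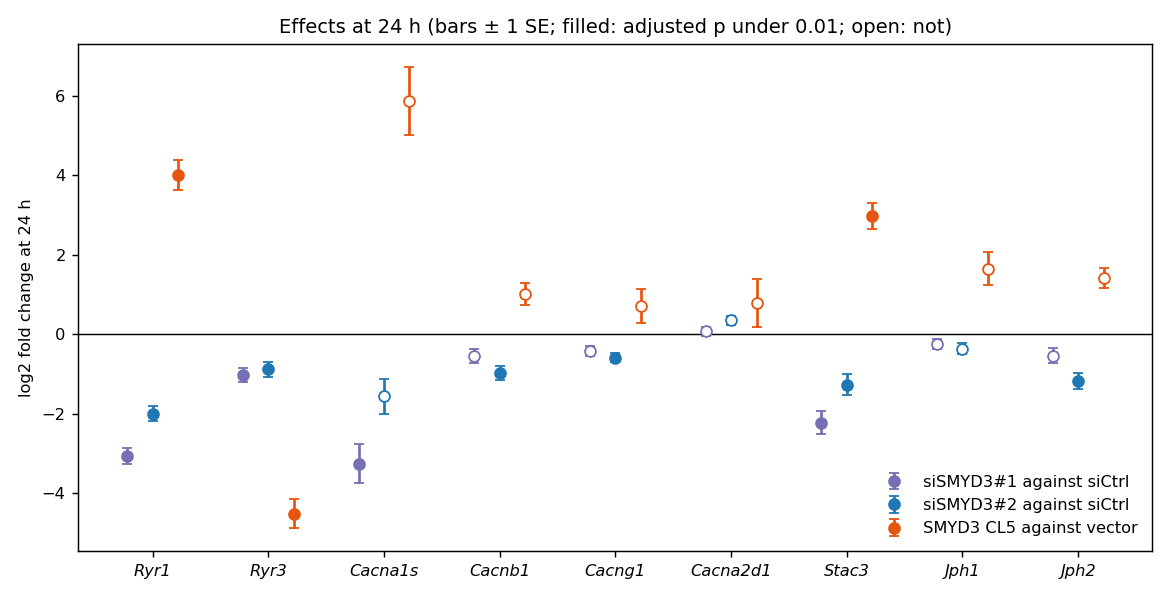
Log2 fold change at 24 h of 9 members against the control of the same experiment, from edgeR, with bars of ± 1 SE (3 libraries per group in the knockdown, 2 in the overexpression). Filled points have an adjusted p under 0.01. In the overexpression Cacna1s passed the filter only through the SMYD3 CL5 libraries, in which it is high, so its point there is not a test result. Ryr1 and Stac3 lie below 0 with both siRNAs and above 0 in SMYD3 CL5, and Ryr3 lies below 0 in all 3.

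The siRNAs were compared directly at 24 h, and Ryr1 was the only member of 9 to differ (3.36% of all genes tested did). It was lower in the libraries labelled siSMYD3#1, by -1.07 ± 0.21 on the log2 scale (adjusted p = 0.00349), although Smyd3 itself was higher there than in the siSMYD3#2 libraries (1.27 ± 0.17, adjusted p = 0.000176). This call was lost when siSMYD3#1 24 h replicate 1 or 3 or siSMYD3#2 24 h replicate 3 was left out (adjusted p = 0.0142, 0.0158 and 0.0228), within the NucleoSpin libraries (-0.64, adjusted p = 0.0114) and without extraction method (-1.04, adjusted p = 0.0595). Cacna1s (-1.69 ± 0.53, adjusted p = 0.0617) and Stac3 (-0.96 ± 0.30, adjusted p = 0.0512) had ranges that did not overlap, also lower with siSMYD3#1. Jph2 was higher with siSMYD3#1, likewise without overlap (0.65 ± 0.19, adjusted p = 0.0399), and passed within the NucleoSpin libraries (0.71, adjusted p = 0.000955), as did Cacnb1 (0.43 ± 0.18, adjusted p = 0.151, against 0.80, adjusted p = 0.000553). Differences of Ryr3 (-0.13 ± 0.18), Cacng1 (0.17 ± 0.12), Cacna2d1 (-0.28 ± 0.12) and Jph1 (0.11 ± 0.14) had adjusted p-values of 0.175 to 0.742.

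At 0 h, before differentiation, 0 of 9 members passed the edgeR test with either siRNA, where 1.43% (siSMYD3#1) and 0.531% (siSMYD3#2) of all genes did. At an unadjusted p under 0.05 the count was also 0 of 9 for each, where 2196 and 1596 of 15820 genes had such a p, and DESeq2 called 0. Ryr1 was at 1.32 to 2.36 CPM with siSMYD3#1 and 1.35 to 1.64 CPM with siSMYD3#2 against 1.32 to 1.65 CPM in siCtrl (0.21 ± 0.25, adjusted p = 0.832, and -0.02 ± 0.25, adjusted p = 0.988).

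Some members were also raised with differentiation in the siRNA libraries. In the libraries labelled siSMYD3#1, 6 of 9 were raised between 0 h and 24 h, where 12.7% of all genes rose, with a median log2 fold change of 1.02. In the siSMYD3#2 libraries 4 of 9 were, where 9.11% of all genes rose, with a median of 0.51. Ryr1 (1.39 ± 0.24, adjusted p = 0.000179, and 2.70 ± 0.23, adjusted p = 3.34e-07), Ryr3 (1.35 ± 0.19 and 1.57 ± 0.19), Cacng1 (0.64 ± 0.12 and 0.62 ± 0.12) and Cacna1s (at least 2.21-fold and at least 7.73-fold) rose with both. Cacna1s is counted in the 6 and the 4, although it passed the filter only through 24 h libraries, in which it is high. With siSMYD3#1 the Cacna1s call was lost without any of the 3 siSMYD3#1 0 h libraries or siSMYD3#1 24 h replicate 2 (adjusted p from 0.0138 to 0.0345). With all 26 libraries in 1 fit, Cacna1s (adjusted p = 0.0191) and Cacng1 (0.63, adjusted p = 0.0568) were lost with siSMYD3#1 and Cacng1 (0.60, adjusted p = 0.0862) with siSMYD3#2, leaving 4 and 3 calls. Cacnb1 (1.02 ± 0.18, adjusted p = 0.000245) and Jph2 (1.19 ± 0.19, adjusted p = 0.000135) passed with siSMYD3#1 and not with siSMYD3#2 (0.50 ± 0.18, adjusted p = 0.0414, and 0.51 ± 0.19, adjusted p = 0.0488). Stac3, raised in siCtrl, gave -0.15 ± 0.30 (adjusted p = 0.735) and 0.43 ± 0.28 (adjusted p = 0.262), Jph1 0.20 ± 0.13 and -0.11 ± 0.13, and Cacna2d1 0.13 ± 0.12 and 0.38 ± 0.12, and none of these passed. Each count fell to 2 without extraction method in the model.

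Whether the siRNA effect changed over the 24 h was tested as the difference between the effects at 24 h and 0 h. For siSMYD3#1 this passed for 1 of 9 members, where 0.215% of all genes did: Ryr1, at -3.29 ± 0.33 (adjusted p = 6.65e-05), that is, its ratio to siCtrl was 9.75-fold lower at 24 h than at 0 h. Stac3 (-1.65 ± 0.40, adjusted p = 0.0772) and Ryr3 (-1.01 ± 0.26, adjusted p = 0.108) came next, and Stac3 passed within the NucleoSpin libraries (-1.48, adjusted p = 0.00879). For siSMYD3#2, 0 of 9 passed with edgeR, where 0.019% of all genes did. At an unadjusted p under 0.05 the count was 7 of 9, where 1585 of 15820 genes had such a p. DESeq2 called 2, Ryr1 and Jph2. Its share over all genes is not given here, so this count is not a result about the members. The values were -1.98 ± 0.32 for Ryr1 (adjusted p = 0.0174), -1.29 ± 0.26 for Jph2 (adjusted p = 0.0562), -0.93 ± 0.25 for Cacnb1 (adjusted p = 0.138), -1.07 ± 0.39 for Stac3 (adjusted p = 0.315) and 0.13 ± 0.17 for Cacna2d1 (adjusted p = 0.867). Within the NucleoSpin libraries Ryr1 (-2.50), Jph2 (-1.54) and Cacnb1 (-1.08) passed for siSMYD3#2 (adjusted p = 3.18e-05, 0.000168 and 0.00387). Left-out libraries moved the siSMYD3#2 count to 2 (siCtrl 24 h replicate 1) or 1 (siSMYD3#1 0 h replicate 1, siSMYD3#1 24 h replicate 1 or siSMYD3#2 24 h replicate 3).

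Libraries labelled SMYD3 CL5 showed the opposite picture for Ryr1, already before differentiation, and opposite directions for Ryr1 and Ryr3. At 0 h, 3 of the 9 members other than Ryr2 were raised against vector cells (Ryr1, Stac3 and Jph2), where 0.465% of all genes were, and 1 was lowered (Ryr3), where 0.606% were. At 24 h, 2 of the 9 were raised (Ryr1 and Stac3), where 0.376% were, and 1 was lowered (Ryr3), where 0.589% were. The median log2 fold change of these 9 was 1.18 at 0 h, also with Cacna1s at its bound, and 1.42 at 24 h, against -0.03 and 0.02 over all genes. The 9 include Cacna1s, which like Ryr2 was kept only through the SMYD3 CL5 libraries.

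Ryr1 was at 2.20 and 1.48 CPM in vector libraries and 47.2 and 41.8 CPM in SMYD3 CL5 libraries at 0 h, and at 6.32 and 4.22 CPM against 106.0 and 62.4 CPM at 24 h. The SMYD3 CL5 level at 0 h was thus within or just above the range of siCtrl cells after 24 h of differentiation, although the experiments were scaled separately. Log2 fold changes were 4.6 ± 0.40 (24.2-fold, adjusted p = 0.00202) and 4 ± 0.38 (16-fold, adjusted p = 0.00286). Ryr3 went the other way: 16.9 and 15.8 CPM in vector libraries and 0.707 and 0.615 CPM in SMYD3 CL5 libraries at 0 h, and 16.2 and 28.8 CPM against 0.994 and 0.967 CPM at 24 h. This is -4.62 ± 0.37 (24.6-fold lower, adjusted p = 0.00171) and -4.52 ± 0.36 (22.9-fold lower, adjusted p = 0.0015), from 21 to 56 counts in each SMYD3 CL5 library. Aven, which shares 916 exon bases with Ryr3, had overlapping ranges in both lines, at 20.8 to 22.8 against 14.4 to 31.6 CPM at 0 h. Ryr2 had 1 to 3 counts in each vector library and 11, 10, 12 and 8 counts in the SMYD3 CL5 libraries, given without a fold or test because it was kept only through the libraries in which it is high.

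The ratio of Ryr1 to Ryr3 per length puts both side by side. It was 0.0817 to 0.338 in the 4 vector libraries and 56.1 to 92.6 in the 4 SMYD3 CL5 libraries. In the knockdown it ranged from 0.0494 to 0.357 at 0 h, from 0.288 to 1.43 in siCtrl at 24 h, from 0.0746 to 0.319 with siSMYD3#1 and from 0.164 to 0.619 with siSMYD3#2, with the TRIzol library lowest in each condition. Thus Ryr3 was the more abundant of the 2 in all libraries but the siCtrl NucleoSpin libraries at 24 h and the SMYD3 CL5 libraries.

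**Figure D3:**
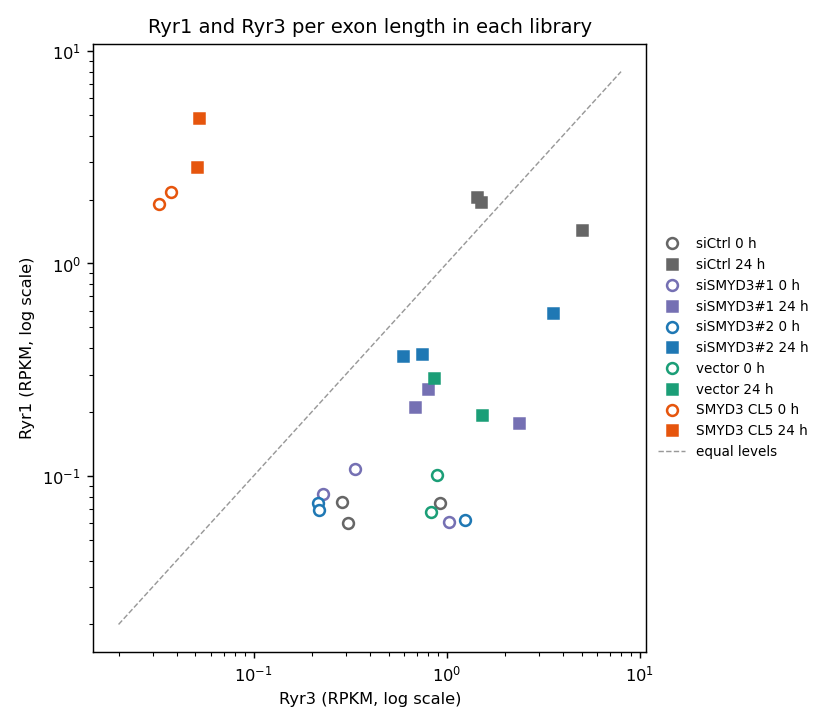
Ryr1 against Ryr3 in each of the 26 libraries, in RPKM on log axes, with open circles for 0 h, filled squares for 24 h and a dashed line where both are equal. The 4 SMYD3 CL5 libraries lie far above the line, at ratios of 56.1 to 92.6, and most others below it. Scaling was done within each experiment.

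In the channel complex, Cacna1s had 0 and 1 counts in vector libraries at 0 h and 95 and 138 in SMYD3 CL5 libraries. At 24 h it had 13 and 3 counts against 722 and 128 (0.288 and 0.0460 against 12.8 and 5.90 CPM). Like Ryr2, Cacna1s is given here without a fold or test, because it was kept only through the libraries in which it is high. Cacnb1 was at 7.30 to 9.39 CPM in vector and 8.68 to 13.2 CPM in SMYD3 CL5 cells at 0 h, which overlap (0.39 ± 0.28), and at 10.3 to 10.6 against 19.5 to 22.7 CPM at 24 h, which do not (1.01 ± 0.28, adjusted p = 0.123). Cacng1 and Cacna2d1 differed widely between the libraries of the clone. Cacng1 was at 62.8 and 140.1 CPM at 0 h and 72.2 and 142.1 CPM at 24 h, against 49.4 to 66.5 CPM in vector cells, and Cacna2d1 at 430.4 and 101.2 CPM and at 354.4 and 182.1 CPM, against 134.8 to 170.4 CPM. The library high for Cacna2d1 was the low one for Cacng1 at both time points. Neither subunit passed the test (Cacng1 1.04 ± 0.43 and 0.71 ± 0.43, Cacna2d1 0.97 ± 0.62 and 0.79 ± 0.61, adjusted p from 0.263 to 0.682).

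Stac3 rose with Ryr1, from 1.66 and 1.44 CPM to 10.9 and 17.7 CPM at 0 h (3.20 ± 0.34, adjusted p = 0.00431) and from 2.99 and 3.30 CPM to 28.5 and 21.05 CPM at 24 h (2.98 ± 0.33, adjusted p = 0.00521). Jph2 was at 31.5 and 40.9 CPM against 115.3 and 164.3 CPM at 0 h, a rise that passed (1.95 ± 0.26, adjusted p = 0.00942), and at 63.1 and 57.2 against 158.5 and 162.7 CPM at 24 h, a difference without overlap that did not (1.42 ± 0.25, adjusted p = 0.0296). Jph1 was at 39.4 and 15.8 CPM at 0 h and 34.6 and 36.3 CPM at 24 h in SMYD3 CL5 cells against 10.2 to 13.4 CPM in vector cells (1.18 ± 0.41, adjusted p = 0.183, and 1.65 ± 0.41, adjusted p = 0.0888). The number of calls changed when libraries were left out: at 0 h the 4 calls were 0 without either vector 0 h library and 2 without either library of vector 24 h or SMYD3 CL5 24 h. At 24 h the 3 calls were 0 without vector 24 h replicate 2 or either SMYD3 CL5 24 h library, 1 without vector 0 h replicate 2 or vector 24 h replicate 1, and 6 without either SMYD3 CL5 0 h library, where the lone library left in a group is assumed to vary like the others. Lost calls had adjusted p-values of 0.0126 to 0.123 at 0 h and 0.0103 to 0.0694 at 24 h, where Stac3 was also lost without vector 0 h replicate 1 (0.0208). The fold changes kept their size and direction in these fits, at 4.34 to 4.96 for Ryr1, -4.67 to -4.50 for Ryr3, 2.84 to 3.57 for Stac3 and 1.70 to 2.24 for Jph2 at 0 h, and at 3.57 to 4.33, -4.88 to -4.00 and 2.74 to 3.17 for Ryr1, Ryr3 and Stac3 at 24 h.

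**Figure D4:**
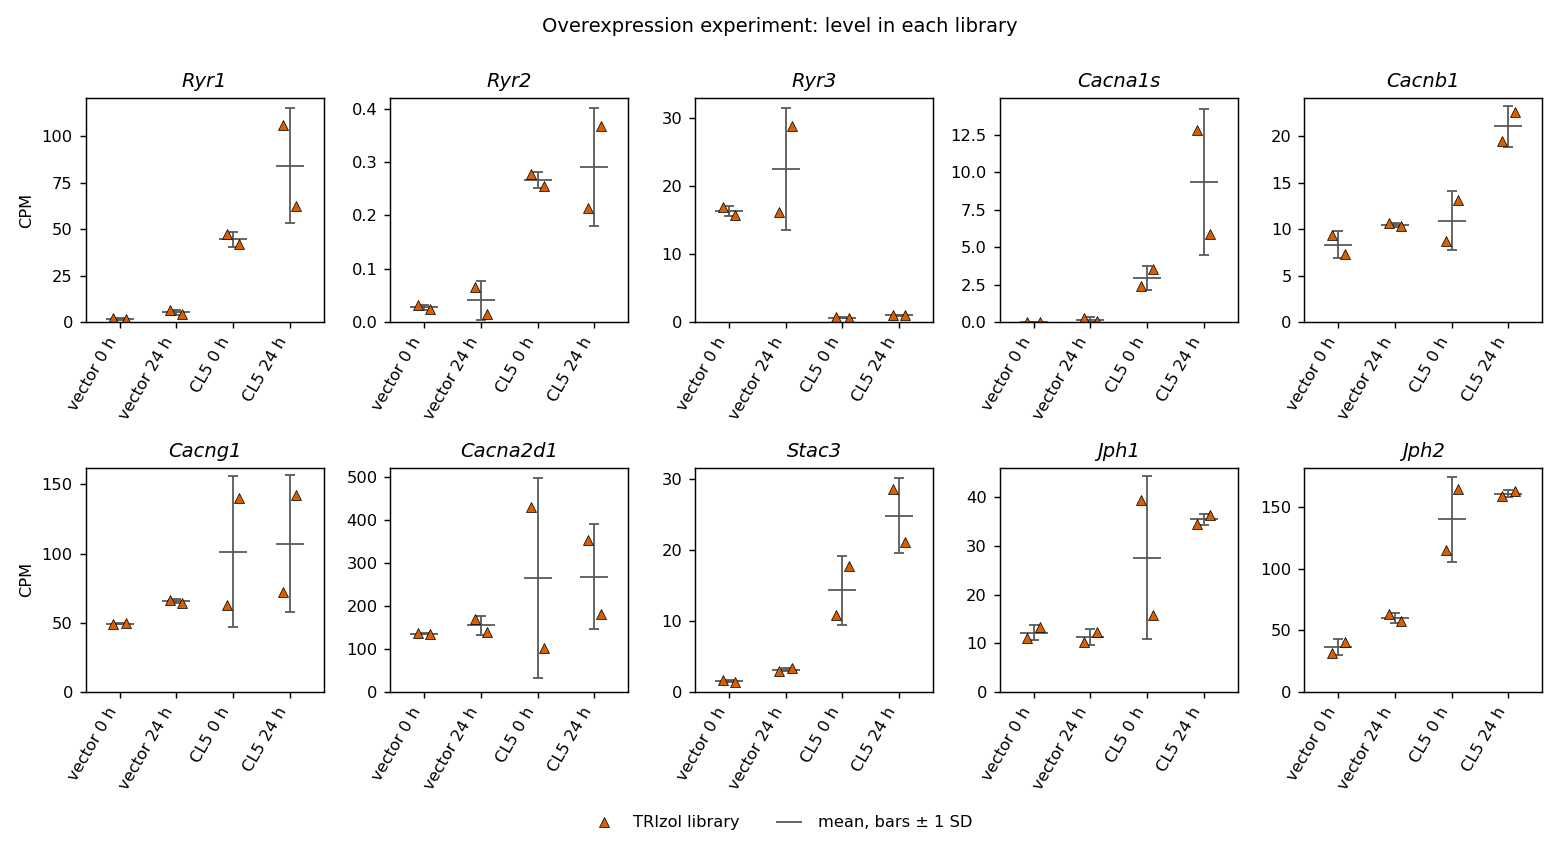
Levels of the 10 members (panels) in the 8 overexpression libraries, in CPM on linear axes from 0, with the mean ± 1 SD of 2 libraries. Ryr1, Ryr2, Cacna1s, Stac3, Jph1 and Jph2 of SMYD3 CL5 lie above and Ryr3 below every vector library. The pair of SMYD3 CL5 libraries is spread wide for Cacng1 and Cacna2d1.

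Within each line, differentiation called 0 of 10 members with edgeR, and 0% of all genes, in vector cells (3 of 10 at an unadjusted p under 0.05), in SMYD3 CL5 cells (4 of 10) and for the difference between the 24 h and 0 h effects of SMYD3 CL5 (0 of 10). DESeq2 called 0 in each. Same-numbered SMYD3 CL5 libraries deviated together between the time points (r = 0.546 after removing condition means), a pairing that these tests do not use. Over all genes, 1256, 1137 and 312 of 17835 had an unadjusted p under 0.05. Ryr1 had a log2 fold change of 1.52 ± 0.36 in vector cells (adjusted p = 0.415), against 4.67 in siCtrl cells of the other experiment, and of 0.92 ± 0.34 in SMYD3 CL5 cells (adjusted p = 0.683). The vector rise was called without the filter on low counts (1.54, adjusted p = 0.00151) and with all 26 libraries in 1 fit (1.55, adjusted p = 0.00859).

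The other genes of the pathway were read from 4 lists. Over all genes tested, 14.6% rose and 14.8% fell with differentiation of siCtrl cells, and 12.7% and 9.11% rose with siSMYD3#1 and siSMYD3#2. Against siCtrl at 24 h, 2.94% fell and 2.91% rose with siSMYD3#1, and 2.04% and 1.66% with siSMYD3#2. The siRNA effect differed between 24 h and 0 h for 0.215% and 0.019%. These shares stand beside the counts of the lists and markers below. Partners of the release complex sit in or beside the junction and buffer, anchor or balance the released calcium. Of 15 listed, 12 were tested in the knockdown, and 8 rose and none fell with differentiation of siCtrl cells (median 1.81). Casq2, the cardiac and slow-fibre calsequestrin that binds calcium in the store, rose by 5.14 ± 0.36, Srl, sarcalumenin, another luminal calcium binder, by 3.17 ± 0.24, and Jsrp1, a junctional protein that binds the channel pair, by 2.93 ± 0.33. At 24 h, 7 of 12 were lowered in libraries labelled siSMYD3#1 (median -0.96) and 5 of 12 with siSMYD3#2 (median -0.59), and none was raised. Casq2 (-3.21 ± 0.32, adjusted p = 8.99e-06, and -2.00 ± 0.31, adjusted p = 0.000789) and Srl (-2.18 ± 0.23 and -1.68 ± 0.23) fell with both, beside Tmem38a, the counter-ion channel TRIC-A, with siSMYD3#1 (-1.50 ± 0.14, adjusted p = 2.14e-06) and Jsrp1 with siSMYD3#2 (-1.75 ± 0.32, adjusted p = 0.00334). For siSMYD3#1 the effect on Casq2, Srl and Tmem38a also differed between 24 h and 0 h (-3.57 ± 0.53, -2.29 ± 0.33 and -1.55 ± 0.20, adjusted p = 0.0038, 0.00368 and 0.000777), while 0 of 12 did for siSMYD3#2. At 0 h neither siRNA changed any of the 12, and with differentiation 7 and 6 of 12 still rose.

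In SMYD3 CL5 libraries, 4 of 13 release partners tested were raised at 24 h (median 1.58) and 2 of 13 at 0 h (median 1.21). Of all genes tested, 0.376% were raised and 0.589% lowered at 24 h, and 0.465% and 0.606% at 0 h, also for the lists and markers below. Hrc, a histidine-rich calcium binder of the store, was at 0.709 and 0.874 CPM in vector and 19.6 and 22.4 CPM in SMYD3 CL5 cells at 24 h (4.72 ± 0.50, adjusted p = 0.00454). Trdn, triadin, which tethers calsequestrin to the release channel, was at 1.35 and 3.82 against 47.0 and 49.7 CPM (4.21 ± 0.49, adjusted p = 0.00581), and Casq2 at 2.64 and 3.60 against 65.5 and 67.7 CPM (4.41 ± 0.51, adjusted p = 0.00587). At 0 h Trdn (4.96 ± 0.52, adjusted p = 0.00431) and Hrc (4.43 ± 0.52, adjusted p = 0.00642) were raised, and Casq2 was not called. Thus Ryr1, Stac3, Trdn and Hrc were higher in the clone before and after the switch to differentiation medium.

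**Figure D5:**
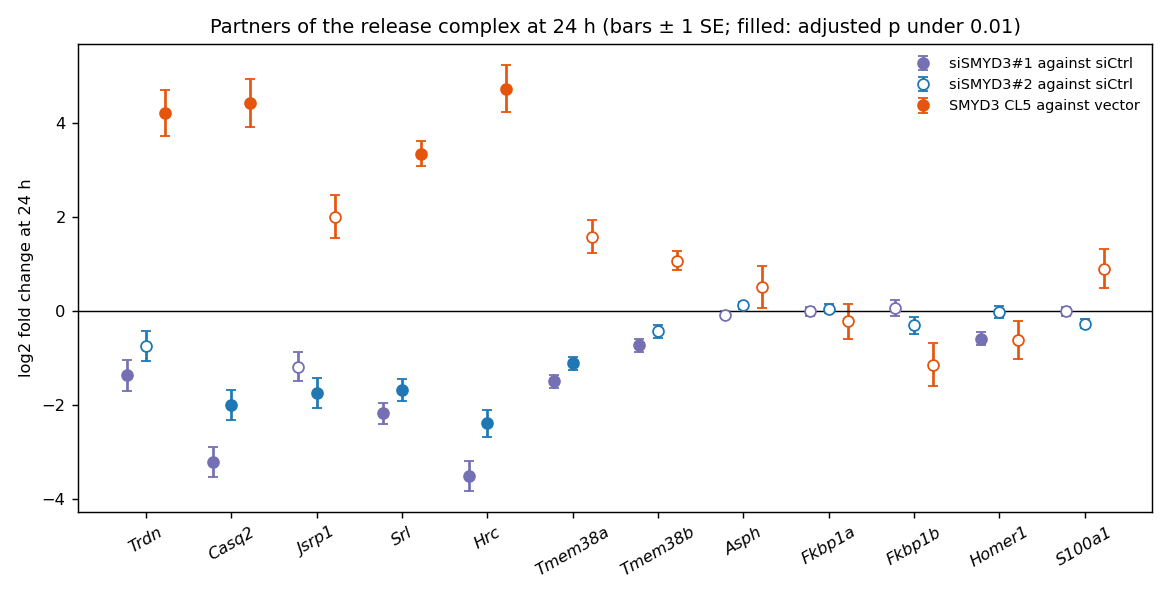
Log2 fold change at 24 h of 12 partners of the release complex against the control of the same experiment, from edgeR, with bars of ± 1 SE and filled points for an adjusted p under 0.01. Casq2, Srl, Hrc and Tmem38a lie below 0 with both siRNAs and above 0 in SMYD3 CL5, whereas Asph and Fkbp1a lie close to 0 in the knockdown.

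Among 24 other calcium channel subunits and Stac proteins, 7 passed the filter in the knockdown. Of these 1 rose in siCtrl cells with differentiation, Cacnb3, a beta subunit of other tissues (0.47 ± 0.09, adjusted p = 0.000281), and 0 of 7 passed against siCtrl with either siRNA at either time point. Of 8 tested in the overexpression, Cacna1b, the pore of the neuronal N-type channel, had 158 to 281 counts in vector libraries. In the clone it had 0 and 1 counts at 0 h and 0 to 4 at 24 h. Cacna1b passed the filter only through the vector libraries, in which it is high, so no fold or test is given. None of the others passed the test at either time point. Of 11 genes of the transverse tubule and of membrane excitability, 6 of 9 tested rose in siCtrl cells, among them Kcnj2, an inward rectifier potassium channel (1.94 ± 0.16), and Dysf, dysferlin (0.97 ± 0.15). With siSMYD3#1 2 of 9 were lowered at 24 h, Dysf among them (-0.70 ± 0.15, adjusted p = 0.00421), and with siSMYD3#2 2 of 9, Kcnj2 among them (-0.85 ± 0.16, adjusted p = 0.00197). Kcnj2 was higher with siSMYD3#1 than with siSMYD3#2 (1.02 ± 0.16, adjusted p = 5e-04). In SMYD3 CL5 0 of 10 passed at either time point. Of 10 inositol trisphosphate receptor, store-operated entry and neuronal junctophilin genes, 8 were tested. In siCtrl cells Stim2, a sensor of the store, rose (0.44 ± 0.08) and Itpr1, a release channel opened by inositol trisphosphate, fell (-0.53 ± 0.13). With siSMYD3#1 at 24 h Stim2 fell (-0.66 ± 0.08, adjusted p = 2.02e-05), and with siSMYD3#2 and in SMYD3 CL5 0 of 8 passed.

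Markers of muscle differentiation were read in the same comparisons. Of the 7 myoblast and myotube markers, 5 rose in siCtrl cells (median 7.25), and at 24 h 4 were lowered with siSMYD3#1 (median -3.59) and 3 with siSMYD3#2 (median -1.81). Myog, myogenin, a regulator of terminal differentiation, stood at 55.6, 222.3 and 262.5 CPM in siCtrl, at 5.64, 19.8 and 17.2 CPM with siSMYD3#1 and at 31.1, 48.6 and 45.2 CPM with siSMYD3#2 at 24 h. In SMYD3 CL5 cells it was at 15.9 and 81.9 CPM at 0 h, against 0.283 and 0.535 CPM in vector cells (6.86 ± 0.89, adjusted p = 0.00885), and at 123.2 and 78.8 CPM against 7.27 and 7.03 CPM at 24 h. The summed level of the 7 markers at 24 h was 529 to 2450 CPM in siCtrl, 229 to 1680 CPM with siSMYD3#1, 311 to 1270 CPM with siSMYD3#2, 699 to 817 CPM in vector and 1530 to 2110 CPM in SMYD3 CL5 libraries. In SMYD3 CL5, 1 of the 7 passed at 0 h (Myog, median 4.43) and 0 at 24 h (median 3.82). The part of these markers in the values of the members was not tested.

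Markers of other tissues that use these channels were read beside them. Of 6 cardiomyocyte markers, 1 of 4 tested was raised in SMYD3 CL5 at 0 h, Nkx2-5 (2.86 ± 0.38, adjusted p = 0.00964), and 0 of 4 at 24 h. Of these 4, 3 were higher and 1 lower at each time point, with a median of 3.25 at 0 h and 2.62 at 24 h. These counts and medians include 1 gene at the floor in vector cells at both time points. It passed the filter only through the SMYD3 CL5 libraries, in which it is high. With that gene set at its bound, the medians were 2.71 at 0 h and 2.62 at 24 h. Their summed level was 28.9 to 32.9 CPM in vector and 35.8 to 57.5 CPM in SMYD3 CL5 libraries, with Hcn4 at the floor in SMYD3 CL5 at both time points, and 22.7 to 32.4 CPM in the knockdown at 24 h. Of 6 neuron markers, 1 of 4 tested was lowered in SMYD3 CL5 at both time points, Stmn2 (-3.66 ± 0.39 and -3.15 ± 0.38), the summed level was 296 to 394 CPM in vector and 74.8 to 182 CPM in SMYD3 CL5 libraries and 161 to 326 CPM in the knockdown at 24 h, and Rbfox3 and Snap25 were at the floor in every condition. In the knockdown, of 3 neuron markers tested Map2 was lowered (-1.31 ± 0.19) and Stmn2 raised (0.78 ± 0.12) with siSMYD3#1 at 24 h and 0 passed with siSMYD3#2, and 0 of 3 cardiomyocyte markers passed with either siRNA, while differentiation of siCtrl cells raised 1 and lowered 1 of 3 on each of these lists. Of 6 adipocyte and osteoblast markers, 1 was tested and 0 called, with a summed level of at most 1.79 CPM. Of 5 smooth muscle markers, 3 of 4 tested rose in siCtrl cells, 0 of 4 passed against siCtrl with either siRNA at 24 h and 0 of 4 in SMYD3 CL5, and the summed level was 1570 to 2460 CPM in vector and 2430 to 4730 CPM in SMYD3 CL5 libraries. How far these markers bear on the members' values was not tested.

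Across the 10 condition means of log2(CPM + 0.5), Ryr1 ran closest with Cacna1s among the members (Pearson r = 0.98), and also close with Cacng1 (0.95), Stac3 (0.93) and Jph2 (0.93), whereas Ryr3 had r = -0.41 with Ryr1 and values of 0.11 or below with all others. These 10 points come from both experiments, and the differentiation switch and the SMYD3 CL5 clone dominate them, so they are given as a description. Of 15598 genes, those with a pattern most like Ryr1 included Exoc3l (0.992) and Myom1 (0.986), and those most like Cacna1s included Gm14635 (0.990) and Trim72 (0.989). For Stac3 they included Lmod3 (0.970) and Gng2 (0.960), and for Jph2 Pcx (0.989), 9330159F19Rik (0.984) and Saraf (0.98). For Ryr3 they were Gpm6b (0.991), Krba1 (0.988) and Rora (0.978), none of which is among those named for the other members.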

How the data were processed

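Total RNA was extracted with TRIzol or NucleoSpin, poly-A RNA was made into TruSeq Stranded mRNA libraries and sequenced as paired-end reads. According to the submitters' processing notes and the methods, the authors checked reads with FastQC 0.11.5, aligned them to GRCm38 with HISAT2 2.1.0 and counted them per gene with featureCounts (Subread 1.6.3). The authors deposited raw counts, 1 table per library with 55341 genes, without normalization, and 54495 of these genes have an entry in GENCODE M21, from which symbols, positions and exon lengths were taken. The strand setting and the treatment of reads with several alignments are not given in the sources used here. No pair of libraries was identical (0 pairs) and 0 rows named no gene.

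Differences were tested here with edgeR 4.0.16 (R 4.3.3), using filterByExpr by condition, TMM scaling and robust quasi-likelihood fits. P-values were adjusted by Benjamini-Hochberg across each fit's genes, and calls need an adjusted p under 0.01. The knockdown fit held 18 libraries with extraction method as covariate (15820 genes), as the study corrected for it, and the overexpression fit 8 libraries (17835 genes). Standard errors are the log2 fold change divided by the square root of F. A condition with at most 3 counts in every library is at the floor, and a fold against it is a lower bound at 3 counts per library. Floors cover counting error only. Scripts were tested on simulated data. Alternatives were DESeq2 1.42.0, RLE size factors, no filter, a threshold of 0.05, each library left out, all 26 libraries in 1 fit, a replicate block and, for the knockdown, no extraction covariate or NucleoSpin libraries alone.

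Groups and extraction came from the sample labels. Replicate numbers for the block came from the study's sample sheet. In the knockdown, same-numbered libraries of different conditions deviated together (r from 0.455 to 0.898 after removing condition means). They also share an extraction method, and after removing that as well r was -0.089 to 0.337. The main tests use extraction method as covariate and no pairing. Only the replicate block, an alternative, takes same-numbered libraries as paired. The block changed no call in the knockdown.

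The 10 members and all gene lists were chosen with earlier results of these data known. Named are all members, Smyd3 and Myog, and of each other list, in a comparison, up to 3 genes past the threshold with the largest log2 fold change among those with at least 100 counts on average, of which a part is given, and the 3 genes with the highest Pearson r of log2(CPM + 0.5) condition means for each of 5 members. Some genes under this rule are not reported here. Genes sharing exon bases with a member, and Asph, Fkbp1a, Map2, Stmn2 and Nkx2-5, were named outside this rule after their values were seen. Promoter windows are RefSeq's, cut where the GENCODE gene begins. Protein sequences were not used here.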

Additional observations from a re-analysis of the deposited data

Results flagged for a closer look

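The effect of the libraries labelled siSMYD3#1 on Ryr1 differed between 24 h and 0 h, with a difference of log2 fold changes of -3.29 ± 0.33 in edgeR's interaction test (adjusted p = 6.65e-05). At 24 h all 3 libraries lay below all siCtrl libraries, and at 0 h the ranges overlapped. Groups here held 2 or 3 libraries, too few for a search for outlying libraries.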

How the results depend on the processing

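No call of a member changed direction under any alternative run. The shares of all genes called in these runs are not given here. A count that rises or falls under another setting is therefore not a result about the members. With extraction method left out of the model, the members called fell to 4 (siCtrl 24 h against 0 h), 2 and 2 (siSMYD3#1 and siSMYD3#2 24 h against 0 h), 1 and 1 (siSMYD3#1 and siSMYD3#2 against siCtrl at 24 h) and 0 (between the siRNAs). At a threshold of 0.05 they were 7 (siSMYD3#2 24 h against 0 h), 2 (between the siRNAs), 1 (change of the siSMYD3#2 effect over time) and 5 (SMYD3 CL5 at 24 h). Without the filter on low counts they were 7 (siSMYD3#1 at 24 h), 4 (between the siRNAs), 3 and 3 (change of either siRNA effect over time), 6 (SMYD3 CL5 at 24 h) and 1 (vector 24 h against 0 h). With all 26 libraries in 1 fit they were 4 and 3 (siSMYD3#1 and siSMYD3#2 24 h against 0 h), 2 (siSMYD3#2 at 24 h), 0 (between the siRNAs), 7 and 7 (SMYD3 CL5 at 24 h and 0 h) and 1 (vector 24 h against 0 h). Within the NucleoSpin libraries they were 2 (between the siRNAs), 2 and 3 (change of the siSMYD3#1 and siSMYD3#2 effects). DESeq2 called 2 and 2 of these changes and 6 members in SMYD3 CL5 at 24 h. Leaving out each library in turn gave 1 to 6 (siSMYD3#2 at 24 h), 0 to 2 (between the siRNAs), 0 to 2 (change of the siSMYD3#2 effect), and 0 to 6 in SMYD3 CL5 at each of 0 h and 24 h. The counts for SMYD3 CL5 include Cacna1s wherever it was called, although in the main fit it was kept only through the SMYD3 CL5 libraries. RLE size factors changed no call. Over the fits without 1 library, values that did not pass also changed sign for Cacna2d1 (siSMYD3#1 24 h against 0 h, -0.00 to 0.20, siSMYD3#1 at 24 h, -0.05 to 0.16, change of the siSMYD3#2 effect, -0.00 to 0.20, and SMYD3 CL5 at 0 h, -0.37 to 1.69), Ryr1 (siSMYD3#2 at 0 h, -0.11 to 0.05), and between the siRNAs Jph1 (-0.06 to 0.30) and Ryr3 (-0.28 to 0.09). They did so within the NucleoSpin libraries for Jph1 (siSMYD3#1 24 h against 0 h, -0.02), Ryr3 (between the siRNAs, 0.17) and Ryr1 (siSMYD3#2 at 0 h, 0.07). The cause of these shifts was not tested. Depth limits Cacna1s and Ryr2, which are near the floor in most conditions.

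In the overexpression, same-numbered libraries deviated together between the time points of SMYD3 CL5 (r = 0.546). In the other comparisons r was -0.057 to 0.153. The replicate block made 1 change there: Cacna1s in SMYD3 CL5 at 24 h was called, a gene kept only through the libraries in which it is high. The block changed no other call.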
